A study of Mus musculus with 28 samples.

Results

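Sex differences in liver gene expression were examined in wild type (WT) mice, using 14 of the 28 libraries of the series, 7 from males and 7 from females. Each library was made from the liver of 1 mouse, and levels were read counts per gene from RNA sequencing. The comparison was limited to autosomal genes, so that genes of the X and Y chromosomes did not enter. Of 49585 features in the count table, 21583 were expressed, meaning a mean of at least 0.5 normalised counts over the 28 libraries, and 20784 of these lay on the 19 autosomes. The genes nearest to this limit were Arhgap33os and Gm13412, both at 0.5001 and kept, and Ifnk and Trbv20, both at 0.4999 and left out. Both WT groups were of strain C57BL/6JOlaHsd, carried no transgene and were littermates of transgenic mice. The labels gave an age of 5 to 7 months and the methods an age of 6 months, with a 4 h fast before the liver was taken in the afternoon. Males and females were kept in separate cages, and the phase of the female cycle was not given in the sources used here. The other 14 libraries, 7 male and 7 female, came from mice of the same strain and age that carried a transgene for Sirt6 (SIRT6-tg), from a single transgenic line. They served below as a second, separate set of males and females.

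Male and female livers differ mainly because the pituitary releases growth hormone in a different rhythm in each sex. In male rodents it comes in pulses with gaps between them, and in females it is present almost all the time. The growth hormone receptor activates the transcription factor STAT5b through the kinase JAK2, and STAT5b acts together with liver factors such as HNF4A, ONECUT1, the repressor BCL6, which is stronger in males, and CUX2, which is made in females. Genes known to depend on this rhythm include cytochrome P450 (Cyp) enzymes, sulfotransferases (Sult), organic anion carriers and the major urinary proteins (Mup), which carry pheromones into the urine of males.

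The labels of sex matched the RNA of the sex chromosomes. Xist, the RNA that silences an X chromosome in females, lay between 0.0334 and 0.251 CPM (reads per gene scaled to a common library total) in males and between 332 and 821 CPM in females, and Ddx3y, Eif2s3y, Kdm5d and Uty of the Y chromosome had at most 2 reads in any female library. Sirt6 itself did not pass the test between the WT groups (log2 difference −0.07, edgeR adjusted p = 0.908). Total counts ran from 18758863 to 35393069 in males and from 23362116 to 32362750 in females. CPM were scaled by the TMM method, whose factors were 1.06 to 1.17 in males and 0.908 to 1.02 in females. The 20 genes with most reads took 23.1% to 26.5% of the counts in males and 27.7% to 30.8% in females, and mitochondrial genes took 2.86% to 4.84% and 4.23% to 6.32%. The libraries were numbered 1 to 7 in males and 33 to 40 in females, so any batch that follows the library number cannot be told apart from sex.

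In a principal component analysis of the 14 libraries, 36.6% of the variance lay on component 1, and 79.5% of the variation of the scores on it was between the sexes. Male scores ran from 2.63 to 54.1 and female scores from −45.1 to −9.27, without overlap (two-sided exact permutation p = 0.000583, the smallest that 7 against 7 allow). With the 500 most variable genes, component 1 took 70.1%. The second component held 20.6% and did not separate the sexes (two-sided exact permutation p = 0.147). On it, male replicate 6 (−36.4) and female replicates 1, 2 and 4 (−47.1, −31.1 and −24.5) stood apart from the other 10 libraries, which scored 1.46 or more. Calls were therefore also counted without these 4 libraries.

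**Figure D1:**
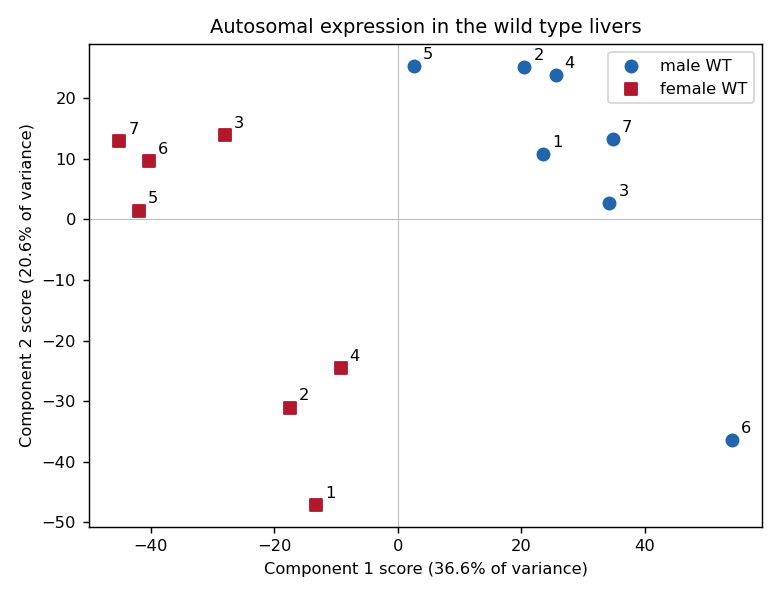
Scores of the 14 WT libraries on the first (horizontal axis) and second (vertical axis) principal component of variance-stabilised counts, each point being 1 mouse. The sexes are separate on the first component, which holds 36.6% of the variance, while male replicate 6 and female replicates 1, 2 and 4 lie low on the second.

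Of the 20784 genes, 2558 (12.3%) differed between WT males and females at an adjusted p under 0.05 in edgeR's quasi-likelihood test. They split into 1403 genes higher in males (6.75% of those tested) and 1155 higher in females (5.56%). The differences were mostly small. The median absolute log2 difference was 0.85 among male-higher and 0.58 among female-higher genes, and 853 genes differed by at least 2-fold, 577 higher in males and 276 higher in females. In 284 of these the ranges of the 7 male and 7 female levels did not overlap, 175 higher in males and 109 higher in females. Ranges were apart in 611 of all genes tested (2.94%). At 16-fold or more there were 69 genes, 31 higher in males and 38 higher in females, and 60 when genes without a read in one sex were set at the lowest fold that their reads allow.

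Female-higher genes weighed more in the RNA as a whole. The genes called higher in females took on average 32.8% of all counts in females and 23.6% in males, against 3.43% and 7.45% for those called higher in males. That each set was larger in its own sex follows from how it was chosen. Alb alone had a mean of 130500 CPM in females and 81120 CPM in males. The direction of small differences depended on how libraries were scaled. With TMM, 54.85% of the calls were higher in males, while scaling by library size alone gave 4087 calls of which 87.4% were higher in males, and scaling by a list of hepatocyte genes gave 3988 calls of which 89.8% were. These scalings moved the median of all genes from about 0 to 0.19 and 0.20 on the log2 scale. Differences of 2-fold or more, 853 of the 2558 calls, are large beside this shift. Many of the differences below are smaller, and the counts by direction of several pathway lists changed with the scaling.

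**Figure D2:**
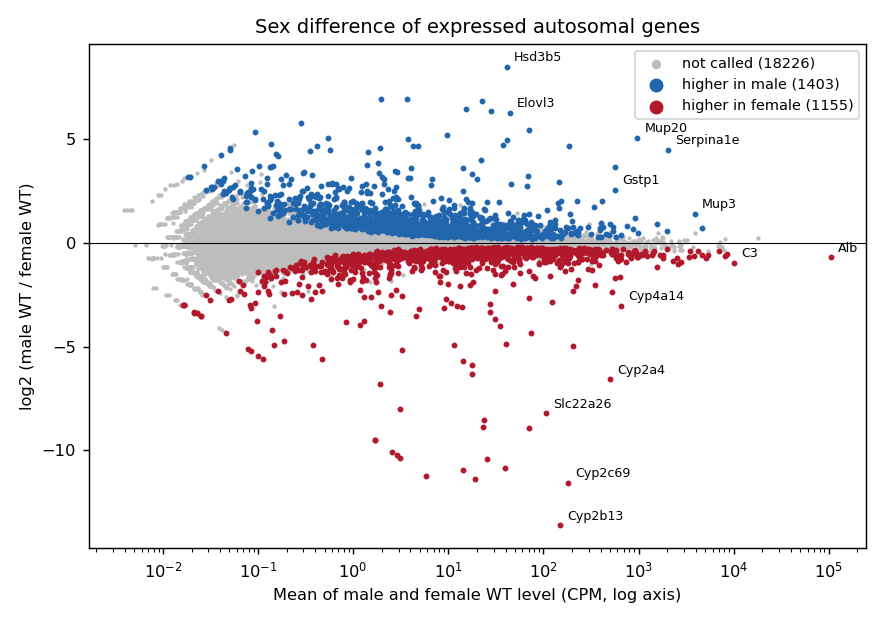
Log2 difference between male and female WT mice (vertical axis, positive is higher in males) against the mean of the male and female levels (horizontal axis, CPM on a log axis) for 20784 autosomal genes, with called genes coloured by direction. The 1403 male-higher and 1155 female-higher genes lie on both sides of 0, and Cyp2b13 has the lowest value, −13.61.

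Of the 12 genes listed for growth hormone receptor signalling, 2 were higher in males and 1 in females, which is 25% beside 12.3% over all genes, with a median log2 difference of −0.23 beside about 0 for all genes. The growth hormone receptor Ghr had a log2 difference of 0.09, Stat5b of −0.20 and Igf1, the hormone that growth hormone induces in liver, of −0.05, and none of these passed the test. Prlr, the receptor of prolactin, ran from 49.1 through a median of 77.9 to 150 CPM in males and from 256.5 through 358 to 464 CPM in females. No male reached the lowest female, and the log2 difference was −2.10 ± 0.19 (standard error, adjusted p = 3.92e-09). Egfr, the receptor of epidermal growth factor, ran from 395 through 539 to 831 CPM in males and from 202 through 273 to 334 CPM in females (log2 difference 0.95, adjusted p = 0.0149). Socs1, a brake on cytokine signalling, was at 3.81 ± 1.48 CPM in males and 0.949 ± 0.363 CPM in females (SD, n = 7, edgeR adjusted p = 7.72e-07).

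Of 20 hepatocyte transcription factors, 5 were higher in females and 0 in males, beside 5.56% and 6.75% of all genes. The female count was 8 without male replicate 5, and 2 were called higher in males with scaling by library size or hepatocyte genes and without the 4 libraries low on the second component. Cux2 had the largest difference. It ran from 0.366 through 0.467 to 1.36 CPM in males and from 6.81 through 33.3 to 73.8 CPM in females, a log2 difference of −5.89 ± 0.47 (standard error, adjusted p = 7.58e-10). Even the lowest female was above the highest male, but females varied more than 10-fold among themselves. Tox (−0.99), Trim24 (−0.94), the estrogen receptor Esr1 (−1.30) and the glucocorticoid receptor Nr3c1 (−0.33) were the others. Bcl6 ran from 6.95 through 31.3 to 60.3 CPM in males and from 6.39 through 11.4 to 24.3 CPM in females. Its groups overlapped and its log2 difference of 1.25 did not pass the test (adjusted p = 0.151). Hnf4a (−0.23), Onecut1 (0.43) and Foxa2 (−0.04) did not pass either.

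Most genes listed as sex-biased in mouse liver differed in the listed direction. The lists were chosen with earlier results of these data known, so their counts are no independent check. Of 24 genes listed as male-biased, 22 were higher in males and 0 in females, with a median log2 difference of 3.01. The exceptions were Gna14 (−0.21) and Moxd1 (0.42, at most 0.0818 CPM in any library). Of 39 expressed genes listed as female-biased, 36 were higher in females and 0 in males, with a median of −4.95. Cyp3a16 (−0.79), Cyp3a41b (−0.49) and Defb1 (−0.07) did not pass the test. Cyp3a41b, at most 0.125 CPM in any library, shares 93.5% of the 50-base stretches of its transcripts with Cyp3a41a and could hardly be measured. Leaving out any library kept the first count at 22 and the second between 35 and 36.

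**Figure D3:**
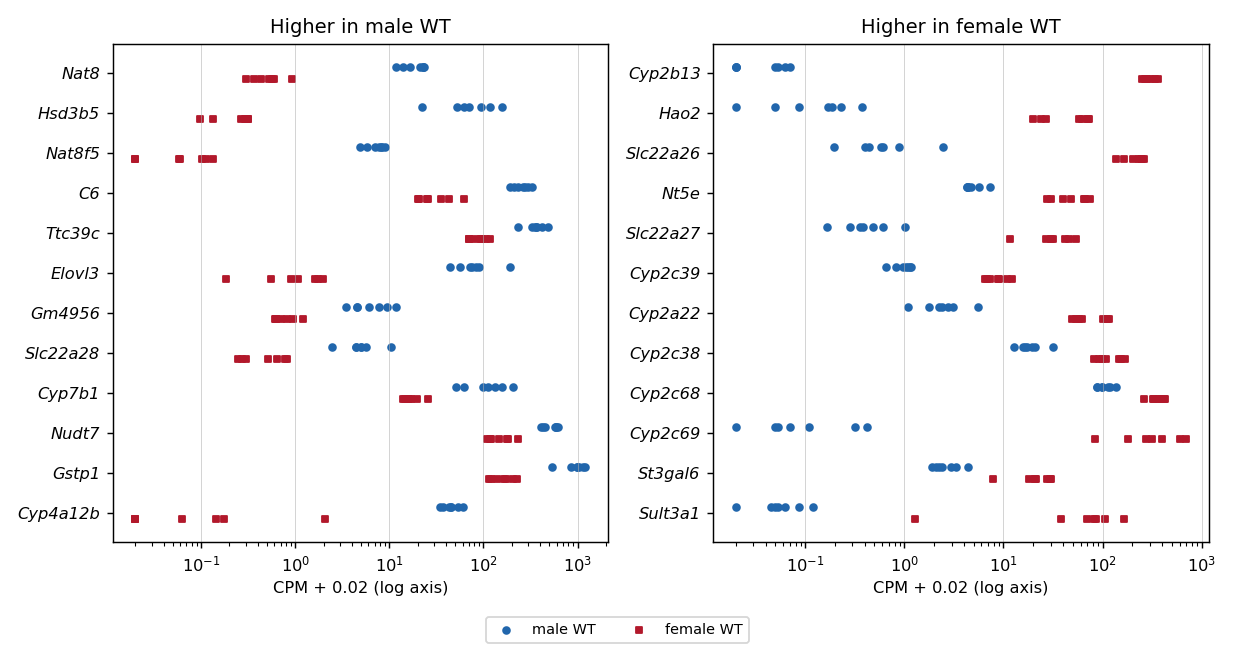
Levels of the 12 genes with the lowest adjusted p in each direction in each of the 14 WT libraries (CPM plus 0.02 on a log axis), with 1 point per mouse and males and females in different colours. In each of the 24 genes the 7 males and 7 females are separate, and no male exceeds 0.0502 CPM of Cyp2b13 or 0.100 CPM of Sult3a1.

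The 12 male-higher genes named for their low adjusted p had various roles. Hsd3b5, which acts on 3-keto steroids (chr3:98618634-98630252 of GRCm38), ran from 22.5 through 69.8 to 156 CPM in males and from 0.0766 through 0.275 to 0.295 CPM in females, a log2 difference of 8.48 ± 0.41 (standard error, adjusted p = 5.53e-15). Males were spread about 7-fold but the lowest was far above every female. Nat8, of a family of acetyltransferases (chr6:85830388-85832082), had the lowest adjusted p. It ran from 11.9 through 20.9 to 23.6 CPM in males and from 0.282 through 0.505 to 0.900 CPM in females (log2 difference 5.20 ± 0.24, adjusted p = 3.08e-16). Its neighbour Nat8f5 differed by 6.94 on the log2 scale. Elovl3, which lengthens fatty acids, ran from 44.2 through 75.3 to 190 CPM in males and from 0.164 through 1.04 to 1.95 CPM in females (log2 difference 6.27, adjusted p = 8.64e-11). Cyp7b1, which hydroxylates oxysterols and steroids, was at 118 ± 54.4 CPM in males and 17.6 ± 4.05 CPM in females (SD, n = 7, edgeR adjusted p = 1.09e-09).

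Gstp1, a glutathione transferase, ran from 538 through 997 to 1212 CPM in males and from 115 through 164 to 226 CPM in females (log2 difference 2.56). Nudt7, a peroxisomal hydrolase of coenzyme A, was at 523 ± 90.6 and 156 ± 44.9 CPM (SD, n = 7). C6, a part of the complement pore, was at 257 ± 47.7 and 33.2 ± 15.2 CPM, and Ttc39c at 363 ± 78.2 and 90.9 ± 17.9 CPM. In these 4 genes the lowest male was above the highest female. The pseudogene Gm4956, the carrier Slc22a28 and Cyp4a12b, which hydroxylates the ends of fatty acids, completed the 12, with log2 differences of 3.13, 3.43 and 6.86. Slc22a28 shares 53.9% of the 50-base stretches of its transcripts with other genes, nearly all with Slc22a30, and Cyp4a12b shares 49.5%, all with Cyp4a12a. The authors kept reads that matched a single place in the genome, so levels of such genes are uncertain and understate the RNA present.

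Of the 5 genes with the largest male excess in CPM, Serpina1e, Serpina3k, Mup3 and Mup20 encode secreted proteins and Cyp2d9 a cytochrome P450 enzyme. Serpina1e, of the alpha-1 antitrypsin family, ran from 2470 through 3808 to 5660 CPM in males and from 22.9 through 99.7 to 683 CPM in females (log2 difference 4.49 ± 0.70, adjusted p = 6.99e-05). Serpina1a, Serpina1b and Serpina1c of the same cluster had log2 differences of −0.24, −0.38 and 0.07. These copies share much sequence, 34.6% of 50-base stretches in Serpina1e and 74.2% in Serpina1c. The log2 difference was 0.69 in Serpina3k, 1.39 in Mup3, 5.07 in Mup20 and 3.64 in Cyp2d9.

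The major urinary proteins were higher in males as a family. Of 20 expressed Mup genes, 15 were higher in males and 0 in females, with a median log2 difference of 2.09, and their summed level was 6390 to 10110 CPM in males and 1471 to 3491 CPM in females. Mup3 ran from 4514 through 5251 to 6944 CPM in males and from 1441 through 2192 to 3437 CPM in females. Mup20, the pheromone protein known as darcin, ran from 1086 through 1876 to 2764 CPM in males and from 12.7 through 26.3 to 246 CPM in females. Most of the central Mup genes could hardly be measured. Mup3 shares 13.3% of its 50-base stretches with other genes and Mup20 50.5%, but Mup7 shares 86.7% and Mup19 100%. Mup1 reached 0.379 to 10.1 CPM in males and at most 0.153 CPM in females, and Mup19 stayed at 0.0698 CPM in males and 0.0599 CPM in females on average.

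Female-higher genes were led by enzymes and carriers that were close to absent in males. Cyp2b13 (chr7:26061497-26096197) had 4 reads in all 7 male libraries together and 53802 in the 7 female ones. It ran from 248.5 through 277 to 362 CPM in females and reached 0.0502 CPM at most in males, a log2 difference of −13.61 ± 0.36 (standard error, adjusted p = 1.15e-22). Hao2, a peroxisomal oxidase of hydroxy acids, ran from 0 through 0.149 to 0.351 CPM in males and from 20.1 through 57.3 to 73.7 CPM in females (log2 difference −8.53). Slc22a26 and Slc22a27 (chr19:7781041-7802667 and chr19:7864388-7966027), carriers of organic anions, were at 0.779 ± 0.771 and 0.453 ± 0.281 CPM in males and at 214 ± 47.9 and 34.7 ± 13.9 CPM in females (SD, n = 7). Sult3a1, a sulfotransferase, ran from 0 through 0.0333 to 0.100 CPM in males and from 1.25 through 81.5 to 163 CPM in females (log2 difference −10.83 ± 0.80, adjusted p = 2.78e-10). Nt5e, which makes adenosine outside the cell, and St3gal6, a sialyltransferase, had log2 differences of −3.33 and −3.04.

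The other 6 of the 12 were Cyp genes, Cyp2a22 and 5 of the Cyp2c group on chromosome 19. Cyp2c69 (chr19:39842814-39886799) ran from 0 through 0.0495 to 0.402 CPM in males and from 82.9 through 317 to 695 CPM in females (log2 difference −11.57 ± 0.83, adjusted p = 1.28e-10). Cyp2c39 was at 0.962 ± 0.187 and 8.77 ± 2.19 CPM, Cyp2c38 at 19.1 ± 6.11 and 122 ± 34.2 CPM, and Cyp2c68 at 106 ± 17.7 and 361 ± 59.2 CPM in males and females (SD, n = 7). Their ranges were apart.

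The Cyp2c cluster shows how far close copies can differ in their sex bias. Of 14 expressed Cyp2c genes, 9 were higher in females and 1 in males. Cyp2c40, from 0.0743 to 0.966 CPM in males and 73.8 to 221 CPM in females, differed by −8.91 on the log2 scale and Cyp2c68 by −1.77. Cyp2c67 lay the other way. It ran from 117 through 132 to 159 CPM in males and from 85.4 through 111 to 125 CPM in females, a log2 difference of 0.38 (adjusted p = 0.0212) that did not pass the test without female replicate 6. Cyp2c40, Cyp2c67, Cyp2c68 and Cyp2c69 share 60.3%, 52.8%, 43.3% and 54.3% of their 50-base stretches with other genes. RefSeq promoter windows (GRCm38.p6, minus strand of chromosome 19) of these 4 genes hold a nearly identical stretch, shown here to set beside their unequal levels. The 120 bases run from 75 bases before the sequence CAAAGTCCA, a motif of the HNF4 type given in capitals, to 45 bases from its start. It begins 45 bases before the annotated start of Cyp2c40, 125 before Cyp2c67, 77 before Cyp2c68 and 75 before Cyp2c69.
Cyp2c40, chr19:39812815-39812934: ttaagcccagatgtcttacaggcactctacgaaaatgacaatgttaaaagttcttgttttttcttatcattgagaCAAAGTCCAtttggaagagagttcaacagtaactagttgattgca
Cyp2c67, chr19:39649123-39649242: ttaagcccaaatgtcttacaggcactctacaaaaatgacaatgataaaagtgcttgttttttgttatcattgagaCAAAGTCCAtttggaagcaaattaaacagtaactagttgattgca
Cyp2c68, chr19:39741134-39741253: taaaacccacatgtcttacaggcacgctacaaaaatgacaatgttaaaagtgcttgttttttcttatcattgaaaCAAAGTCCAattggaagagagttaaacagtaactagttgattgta
Cyp2c69, chr19:39886800-39886919: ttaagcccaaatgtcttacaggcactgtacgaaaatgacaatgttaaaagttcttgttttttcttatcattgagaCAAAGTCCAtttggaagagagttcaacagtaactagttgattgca

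Cyp2c40 and Cyp2c69, both nearly absent in males, were identical at 118 of these 120 bases (98.3%). Cyp2c67, which was not lower in males, was identical to Cyp2c40 and to Cyp2c69 at 111 bases each (92.5%). Cyp2c68, with its smaller difference, was identical to Cyp2c40 at 110 bases (91.7%) and to Cyp2c67 at 108 (90.0%). The stretch and its alignment were chosen after the sequences were seen, and its part in the sex difference was not tested.

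Of 19 expressed Sult genes, 12 were higher in females and 1, Sult2a8, in males (log2 difference 0.75). Sult2a3, Sult2a4, Sult2a5, Sult2a6 and Sult3a2 had no read in any of the 7 male libraries. A floor of 3 reads was set over the male group, at the 95% level and covering counting error only. It makes the mean female levels of these genes at least 404-, 364-, 816-, 440- and 242-fold higher. Not every female was higher. Female replicate 3 had 0 CPM of Sult2a5, Sult2a6 and Sult3a2 and 0.03055 CPM of Sult2a3 and Sult2a4. These genes share 6.63% to 34.5% of their 50-base stretches with other genes. Sult1a1, which sulfates phenols, was expressed in both sexes (log2 difference −1.05). All 3 expressed Cyp2b genes and 3 of 4 Cyp2a genes were higher in females. Cyp2a4, a steroid hydroxylase, ran from 1.18 through 5.19 to 29.7 CPM in males and from 662 through 861 to 2058 CPM in females, whereas its close copy Cyp2a5 was at 842 ± 234 CPM in males and 876 ± 209 CPM in females (SD, n = 7, log2 difference −0.06, edgeR adjusted p = 0.927). A1bg, a plasma protein, reached at most 0.0991 CPM in males and ran from 2.02 through 30.1 to 114 CPM in females.

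Other families were divided between the sexes, beside 6.75% of all genes higher in males and 5.56% higher in females. Of 6 Cyp4a genes, Cyp4a12a (log2 difference 5.45) and Cyp4a12b were higher in males, and Cyp4a10 (−2.03), Cyp4a14 (−3.02) and Cyp4a31 (−1.13) in females, within 1 stretch of chromosome 4. Of 16 carboxylesterase (Ces) genes, 6 were higher in males, such as Ces3a at 1272 ± 198 CPM against 548 ± 141 CPM, and 2 in females, such as Ces1c at 1940 ± 322 CPM against 3707 ± 582 CPM (SD, n = 7). Of 20 Serpina genes, 6 were higher in males and 5 in females, among the latter Serpina6, which carries corticosteroids in blood (log2 difference −1.72). Of 10 Slco carriers, 3 were higher in males and 2 in females. Slco1a1 ran from 176 through 342 to 549 CPM in males and from 2.41 through 7.73 to 54.2 CPM in females, and Slco1a4 from 54.6 through 91.1 to 124 CPM and from 158 through 206 to 239 CPM. These carriers of bile acids and other anions are neighbours in family but opposite in bias. Of the 10 Acot thioesterases, 7 were higher in females, with Acot3 first (log2 difference −2.85). Of 16 Ugt, 20 Gst and 20 Aldh genes, 3, 3 and 3 were higher in males and 2, 4 and 5 in females.

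Sex-different genes lay together in the genome. Runs of at least 5 called genes of 2-fold or more, with starts within 200 kb of the next, were found at 14 places. The longest was on chromosome 7, from 25897620 to 26403700, where all 11 expressed genes were higher in females, among them Cyp2b10, Cyp2b13, Cyp2b9 and Cyp2a4. The runs at the Sult2a genes on the same chromosome (8 of 11 expressed genes), at the Acot genes on chromosome 12 (6 of 6) and at the Cyp2c genes on chromosome 19 (6 of 7) were higher in females as well. Runs higher in males lay at the Mup genes on chromosome 4 (7 of 12 and 10 of 19 expressed genes) and at the Ces genes on chromosome 8 (5 of 12). Others were in the MHC class II region on chromosome 17 (9 of 14), around Tgtp1 and Ifi47 (5 of 11) and around Ccl2, Ccl7 and Ccl8 (5 of 7) on chromosome 11, and around Zfp992 and Zfp993 on chromosome 4 (5 of 7). The Cyp4a run on chromosome 4 (5 of 5), the Serpina run on chromosome 12 (7 of 19) and the Gstp and Aldh3b run on chromosome 19 (5 of 19) held genes of both directions. Copies in such runs share sequence, so neighbours are not independent counts. The share of genes called was highest on chromosome 19 (19.3%) and lowest on chromosome 3 (10.1%).

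Promoter sequence was looked at for STAT5, ONECUT or CUX, and HNF4 type motifs, searched on both strands as TTCNNNGAA, ATCGAT and CAAAGTCCA in RefSeq windows from 250 bases before to 50 bases after the start. Of 16203 windows of expressed autosomal genes, 7.05% held the first, 0.895% the second and 0.537% the third. Among 116 windows of genes at least 4-fold higher in males the shares were 5.17%, 1.72% and 2.59%, and among 83 windows of genes at least 4-fold higher in females 9.64%, 1.20% and 3.61%. The shares of these sets rest on 1 to 8 windows each, and copies of a family share their promoters. Of the 39 genes named by rule, 32 had a window and 8 of these held a match. Matches are shown for 3 of the 8, with the 150 bases before the start and the match in capitals. These 3 do not stand for the rest. Among those not shown here were Nat8, higher in males (HNF4 type), Fga (STAT5 type) and Gbp5 (2 of the STAT5 type).
Serpina1e, higher in males, chr12:103956898-103957047, minus strand, ONECUT and CUX type: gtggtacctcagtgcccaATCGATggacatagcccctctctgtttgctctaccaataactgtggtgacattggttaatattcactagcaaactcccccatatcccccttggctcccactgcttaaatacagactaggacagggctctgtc
Slc22a26, higher in females, chr19:7802668-7802817, minus strand, STAT5 type: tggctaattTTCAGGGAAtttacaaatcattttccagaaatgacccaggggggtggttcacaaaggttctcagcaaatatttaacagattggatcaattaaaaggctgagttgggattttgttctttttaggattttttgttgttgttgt
Sult3a1, higher in females, chr10:33857572-33857721, plus strand, STAT5 type: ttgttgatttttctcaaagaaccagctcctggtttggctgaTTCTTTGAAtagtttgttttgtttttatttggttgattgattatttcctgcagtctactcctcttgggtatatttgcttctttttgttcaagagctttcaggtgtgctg
A match is a run of letters and no binding was measured.

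Within each sex, single mice recurred as the lowest or highest for many sex-biased genes. Female replicate 3 was the lowest female for 27 of the 36 called genes of the female-biased list and the highest female for 11 of the 22 called genes of the male-biased list. In it, Sult2a1 was at 0.0611 CPM, against 5.47 to 85.3 CPM in the other 6 females, and Sult3a1 at 1.25 CPM against 37.8 to 163 CPM. It had the highest female levels of Mup20 (246 CPM), Cyp4a12a (17.5 CPM) and Cyp2d9 (221 CPM). This library was the deepest of the females, with 32362750 counts, and had as little RNA of the Y chromosome as the other females. Male replicate 5 was the highest male for 21 of the 36 female-biased genes and the lowest for 9 of the 22 male-biased ones. It had 71.8 CPM of Cyp2b9, 551 CPM of Cyp4a14 and 129 CPM of Acot3, and its summed level of the female-biased list was 1583 CPM, against 333 to 528 CPM in the other males and 3952 to 7660 CPM in females. It was the shallowest library, with 18758863 counts. Male replicate 6 was lowest for 10 of the male-biased genes, among them Hsd3b5 and Slco1a1, and highest for 5. These patterns were noticed in the data, and their origin was not tested.

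Enzymes of steroid hormones were sex-different in both directions. Of 18 expressed genes of steroid metabolism, 5 were higher in males and 4 in females, beside 6.75% and 5.56% of all genes. Srd5a1, which reduces testosterone to dihydrotestosterone, ran from 46.7 through 61.3 to 81.1 CPM in males and from 16.5 through 23.3 to 29.3 CPM in females (log2 difference 1.45, adjusted p = 5.85e-09). Cyp17a1, the enzyme that leads from progestagens to androgens, ran from 1.80 through 4.88 to 6.74 CPM in males and from 14.8 through 63.7 to 90.4 CPM in females (log2 difference −3.68). Hsd17b6 (−1.34), Hsd11b1 (−0.54) and Akr1d1 (−0.90) were higher in females too.

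In bile acid metabolism, 4 of 24 genes were higher in males and 7 in females, beside 6.75% and 5.56% of all genes. With scaling by library size alone or by hepatocyte genes these counts were 5 and 5. Cyp7a1, the rate-limiting enzyme of bile acid synthesis, was at 113 ± 54.2 CPM in males and 88.0 ± 32.1 CPM in females (SD, n = 7), a difference that did not pass the test (edgeR adjusted p = 0.622). Cyp8b1, which sets the share of cholic acid, did not pass either (log2 difference 0.59, adjusted p = 0.291). Scp2, which carries sterols and takes part in shortening their side chain, ran from 1512 through 2012 to 2470 CPM in males and from 925 through 979 to 1432 CPM in females. Cyp2c70, which makes muricholic acids, was at 423 ± 62.2 and 787 ± 204 CPM, and Slc10a1, which takes bile acids up from blood, at 437 ± 58.2 and 723 ± 72.7 CPM in males and females. For Scp2, Cyp2c70 and Slc10a1 the ranges were apart.

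About as many genes of fatty acid oxidation were called higher in females as were not called, beside 5.56% of all genes called higher in females. Of 24 genes of peroxisomal oxidation and targets of PPARα, the receptor that answers to fatty acids in fasting, 13 were higher in females and 0 in males, with a median log2 difference of −0.69. Cyp4a14 ran from 31.7 through 50.8 to 551 CPM in males and from 568 through 999 to 2241 CPM in females, so that the highest male, replicate 5, came close to the lowest female. Vnn1 (−1.62), Ehhadh (−0.88), Hacl1 (−1.32) and Plin2 (−0.61) were higher in females as well, and the hormone Fgf21, at 1.09 ± 0.917 CPM in males and 3.91 ± 4.03 CPM in females (SD, n = 7), did not pass the test (edgeR adjusted p = 0.0609). Of 22 genes of fatty acid uptake and mitochondrial oxidation, 11 were higher in females and 0 in males, such as the fatty acid receptor Cd36 (−1.04), Acsl1 (−0.72) and Acadl (−0.49). With scaling by library size alone this second list had 3 genes higher in females and 2 in males, and with scaling by hepatocyte genes 2 and 2. The PPARα list had 10 and 2, and 10 and 1.

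Genes of lipid synthesis and sugar metabolism were called at or below the 12.3% found over all genes. No gene of 22 in cholesterol synthesis and none of 25 in the tricarboxylic acid cycle and respiratory chain was called by edgeR in either direction. In each of these lists 2 genes had an unadjusted p under 0.05 and 0 were called by DESeq2. Scaling by library size alone called 2 cholesterol, 3 respiratory chain and 3 glucose genes higher in males, and scaling by hepatocyte genes 2, 5 and 3. Of 20 lipogenic genes 1 was called, the desaturase Fads1, higher in females (−0.45). Of 17 genes of glucose metabolism 2 were higher in females, among them the coactivator Ppargc1a (−0.97). G6pc, which releases glucose, was at 211 ± 137 CPM in males and 427 ± 164 CPM in females (SD, n = 7) and did not pass the test (edgeR adjusted p = 0.131). Of 28 genes of amino acid breakdown 8 were higher in females and 0 in males, but 2 and 3 with scaling by library size and 1 and 3 with scaling by hepatocyte genes. Of 17 clock genes 1 was called, Bhlhe41, higher in males (log2 difference 1.46). Pericentral genes had 1 call of 12 and periportal genes 4 of 12.

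Several of the main plasma proteins were higher in females. Alb, which encodes albumin, ran from 68240 through 78170 to 106700 CPM in males and from 115600 through 125500 to 151600 CPM in females, a log2 difference of −0.69 ± 0.11 (standard error, adjusted p = 5.76e-05). Complement C3 was at 6911 ± 2105 and 13440 ± 2386 CPM, the mineral-binding Ahsg at 6365 ± 585 and 9843 ± 1231 CPM, the selenium carrier Selenop at 6981 ± 1301 and 10070 ± 1928 CPM, and the fibrinogen chain Fga at 3882 ± 601 and 6418 ± 577 CPM in males and females (SD, n = 7). These 5 had the largest female excess in CPM, and the excess passed the test under each scaling tried. Ranges were apart in Alb, Ahsg and Fga.

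Complement genes were called in both directions, beside 6.75% of all genes higher in males and 5.56% higher in females. Of 36 complement and coagulation genes, 6 were higher in males and 9 in females, but 9 and 6 with scaling by library size alone and 11 and 6 with scaling by hepatocyte genes. Genes of the terminal pore were among the male-higher ones: C6 (log2 difference 2.95), C8a (0.89), C8b (1.03) and C9 (0.75). C4a, known in mice as the sex-limited protein, ran from 7.18 through 13.1 to 19.8 CPM in males and from 2.45 through 3.54 to 6.34 CPM in females (log2 difference 1.75). C8b ran from 187 through 269 to 345 CPM in males and from 101 through 137 to 163 CPM in females. C3 (−0.96) and the regulator Cfi (−0.52) were higher in females. Of 21 acute phase and iron genes, 12 were higher in females and 2 in males. The male-higher ones were the serum amyloids Saa1 (1.41) and Saa2 (1.57), whose ranges overlapped. Hamp2, a copy of the hepcidin gene, ran from 2.77 through 8.25 to 12.4 CPM in males and from 63.4 through 146 to 251 CPM in females (log2 difference −4.36, adjusted p = 1.91e-08), and Hamp, hepcidin itself, which blocks iron export, was at 514 ± 164 and 972 ± 272 CPM (SD, n = 7). Itih4 (−1.03), Fgl1 (−1.64) and Apcs (−1.06) were higher in females as well.

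Lists of MHC class II, interferon-gamma and T cell genes had most of their members higher in males. Beside 12.3% of all genes, 0 of 11 B cell, 1 of 10 Kupffer cell and 1 of 8 neutrophil genes were called. In bulk tissue, fewer cells of a type and less RNA per cell cannot be told apart. All 7 listed MHC class II genes, which show antigen to helper T cells, were higher in males, with a median log2 difference of 1.93. Their summed level was 639 to 2531 CPM in males and 172 to 680 CPM in females, so the groups overlapped narrowly. H2-Aa ran from 119 through 201 to 332 CPM in males and from 38.5 through 64.6 to 118 CPM in females (log2 difference 1.66 ± 0.29, adjusted p = 0.000224). Of 19 genes of the interferon-gamma response 16 were higher in males and 0 in females, with a median of 1.01. Cxcl10, which attracts T cells, ran from 20.2 through 35.7 to 52.7 CPM in males and from 6.61 through 12.3 to 16.03 CPM in females. The summed level of this list was 1672 to 3142 CPM in males and 843 to 1638 CPM in females, apart by little. Without male replicate 7 the count of 16 became 11, and without the 4 libraries low on the second component it was 11 too.

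T cell genes followed, with 14 of 16 higher in males and a median of 1.29. Cd8a, of killer T cells, ran from 3.31 through 8.07 to 8.70 CPM in males and from 0.605 through 1.99 to 2.96 CPM in females (log2 difference 1.90, adjusted p = 1.37e-05). The summed level of the list was 26.6 to 80.0 CPM in males and 9.44 to 30.1 CPM in females. Of 10 NK cell genes 5 were higher in males, such as the killing proteins Gzmb (1.97) and Prf1 (1.62), which T cells also make, while the defining Ncr1 (−0.19) and Klrb1c (−0.61) did not pass. Of 12 genes of recruited macrophages and dendritic cells 8 were higher in males, with Gpnmb first (3.34). Of 10 Kupffer cell genes Marco alone was called (1.35), and the count ranged from 0 (without male replicate 6) to 5 when single libraries were left out. Clec4f, which defines Kupffer cells, had a log2 difference of 0.18. None of 11 B cell, 11 endothelial or 5 erythroid genes was called by edgeR. Among these 1, 1 and 0 had an unadjusted p under 0.05, and DESeq2 called 1, 0 and 0. Of 8 neutrophil genes 1 was called, Ngp (−2.33), at 0.0423 CPM in males and 0.214 CPM in females. With scaling by library size or by hepatocyte genes, 5 Kupffer cell and 2 B cell genes were called higher in males. Their list medians with TMM were 0.54 and 0.37. With these scalings 0 neutrophil genes were called.

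Most listed genes of cell division were higher in males, beside 6.75% of all genes, but their summed level overlapped between the sexes. It was 110.8 to 235.3 CPM in males and 82.23 to 159.3 CPM in females. Of 20 cell cycle genes 15 were higher in males and 0 in females, with a median of 1.06, and the count was 11 without male replicate 7 or without the 4 libraries. Cdc20, which starts the exit from mitosis, ran from 3.16 through 5.16 to 16.5 CPM in males and from 0.532 through 1.42 to 2.67 CPM in females. Ccnd1 (−0.14), which hepatocytes also make, did not pass. Of 12 stellate and fibroblast genes 3 were higher in males, 1 in females and 8 were not called. Col1a1 (1.67), Col1a2 (1.14) and Col3a1 (1.10) were higher in males and Rgs5 (−0.50) in females, while Lrat, Reln and Dcn, which define these cells, had differences of −0.13, −0.08 and 0.11. Of 14 hepatocyte genes Alb, Ahsg and Serpinc1 were higher in females and 11 were not called.

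Fat and pancreas next to the liver can enter a sample. Of 5 adipose genes Plin1 and Cfd were called higher in males, but without male replicate 3 neither was. That library had a summed level of 40.5 CPM against 6.14 to 19.9 CPM in the other males, and female replicate 1 had 34.5 CPM against 4.83 to 8.79 CPM in the other females. Lep was not expressed and Adipoq reached 2.58 CPM at most. None of 6 pancreas genes was called by edgeR or DESeq2 (2 had an unadjusted p under 0.05). They summed to 4.17 CPM in male replicate 3 and to 0.736 CPM or less in the other 13 libraries. Their part in other results was not tested.

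**Figure D4:**
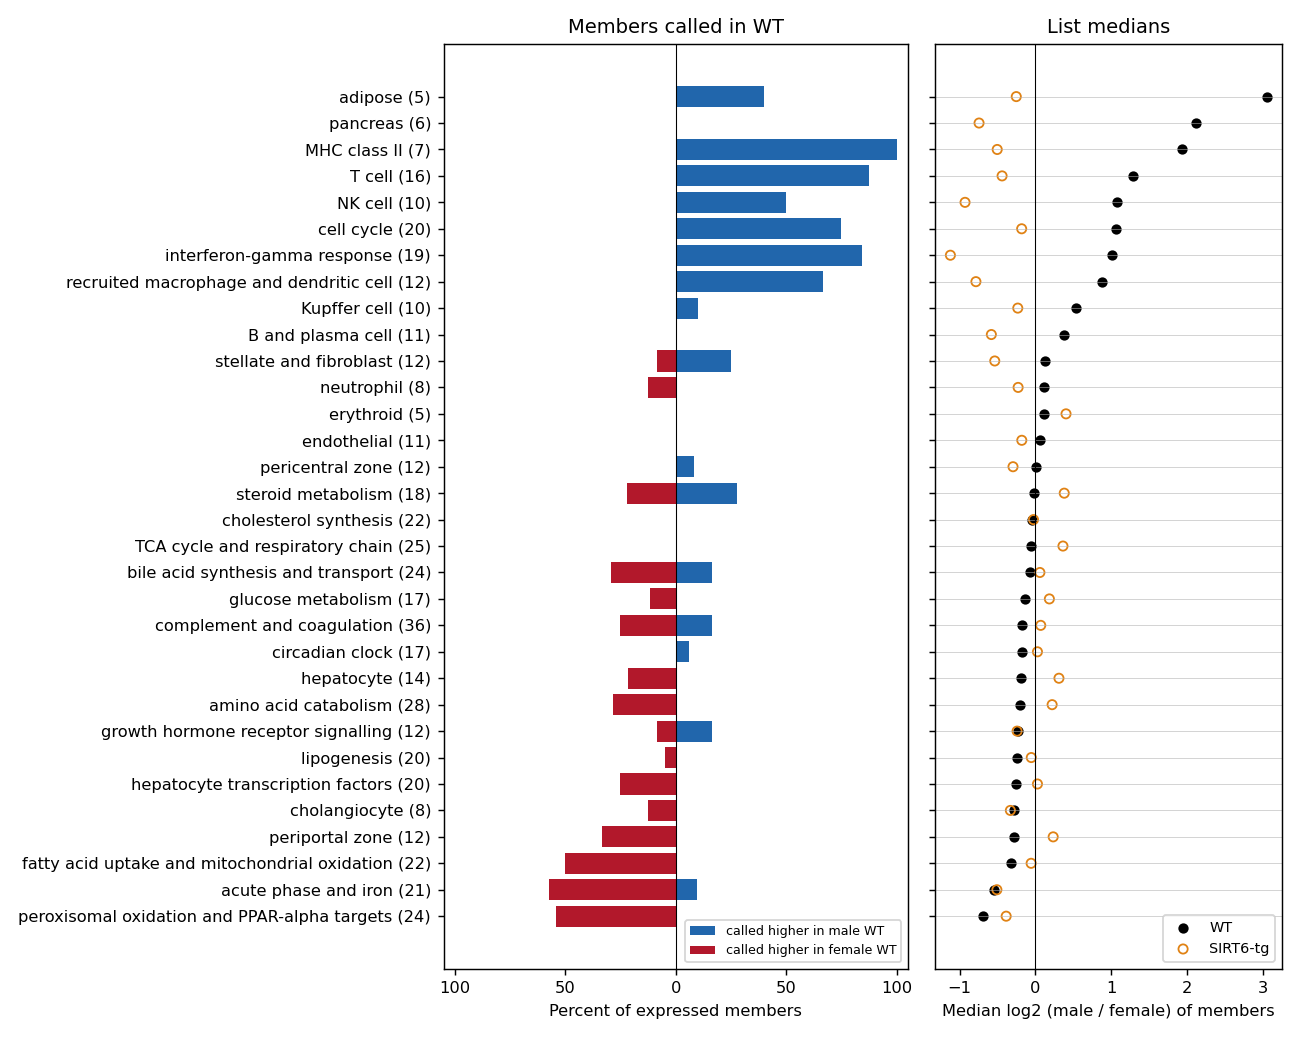
Left, percent of the expressed members of each pathway and cell type list (their number in brackets) called higher in males (bars to the right) or in females (bars to the left) in WT mice, where 6.75% and 5.56% of all genes were. Right, median log2 sex difference of each list in WT (filled) and SIRT6-tg (open) mice, where MHC class II (1.93 and −0.50), interferon-gamma (1.01 and −1.12) and T cell genes (1.29 and −0.44) lie on opposite sides of 0.

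The 7 male and 7 female SIRT6-tg mice gave the same contrast in animals that the WT contrast did not use, although the spread was estimated over all 28 libraries. In them 4807 genes (23.1%) differed between the sexes. Of the 2558 WT calls, 1143 (44.7%) were called in the same direction, 589 of the 1155 female-higher ones and 554 of the 1403 male-higher ones (39.5%). A further 159 were called in the opposite direction, 156 of them higher in WT males. Of the 69 genes with a 16-fold difference or more, 62 were called in the same direction. Of the 24 known male-biased genes, 23 were called higher in males, and all 39 known female-biased genes were called higher in females. These lists were chosen with earlier results of these data known.

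A test of the difference between the genotypes called 1055 of the 20784 genes (5.08%). Among WT calls these were 552, made up of 473 male-higher genes (33.7% of those) and 79 female-higher genes (6.84%). The WT libraries that gave these calls also enter the test of the change, which can by itself raise such shares above 5.08%. Of the 552, the 5 with the lowest adjusted p were Gcnt1, Gbp5, Ms4a4b, Col6a3 and Glipr2. Gbp5, a GTPase induced by interferon-gamma, ran from 7.19 through 8.93 to 17.4 CPM in WT males and from 2.58 through 3.73 to 5.93 CPM in WT females. Its log2 sex difference was 1.30 in WT and −1.49 in SIRT6-tg mice, and the change between them of 2.79 had an adjusted p of 8.21e-05 in edgeR. Gcnt1, which branches sugar chains, went from 0.89 to −1.55, Ms4a4b, found on T cells, from 1.01 to −1.11, the collagen chain Col6a3 from 0.67 to −0.84, and Glipr2 from 0.86 to −1.56.

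The number of such genes differed from list to list. The difference between genotypes was called in 7 of 7 MHC class II genes, 16 of 19 interferon-gamma genes, 10 of 16 T cell genes, 7 of 10 NK cell genes, 7 of 12 genes of recruited macrophages and dendritic cells, and 10 of 20 cell cycle genes, in each case with more male excess in WT. It was called in 1 of 11 B cell, 1 of 10 Kupffer cell and 0 of 8 neutrophil genes, beside 5.08% of all genes. In lists this short, such counts cannot be told from that share. In SIRT6-tg mice 0 of the 7 MHC class II genes were called between the sexes, and 14 interferon-gamma genes were higher in females. The summed level of the MHC class II list was 144 to 321 CPM in SIRT6-tg males and 159 to 544 CPM in SIRT6-tg females, beside 639 to 2531 CPM in WT males and 172 to 680 CPM in WT females. Library numbers run apart between the 4 groups, so a batch that follows them cannot be told apart from sex and genotype.

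A difference between the genotypes was called in 2 of 24 known male-biased and 1 of 39 known female-biased genes, beside 5.08% of all genes. These were Cyp4a12a, with a log2 difference of 5.45 in WT and 9.33 in SIRT6-tg mice, Keg1 (0.87 and 1.72) and Cyp2c40 (−8.91 and −6.15). Among plasma proteins, Fga went from −0.73 in WT to −0.07 in SIRT6-tg mice (adjusted p of the change 0.0191), with Fgb (−0.58 and 0.08) and Fgg likewise called. Hamp went from −0.92 to 0.18 (adjusted p 0.0307). Alb differed by −0.69 in WT and by −0.21 in SIRT6-tg mice, where it did not pass the test, and the change between genotypes was not called (adjusted p = 0.0686). The pseudogene Gm4956 was further apart between the sexes in SIRT6-tg mice (4.91) than in WT mice (3.13).

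**Figure D5:**
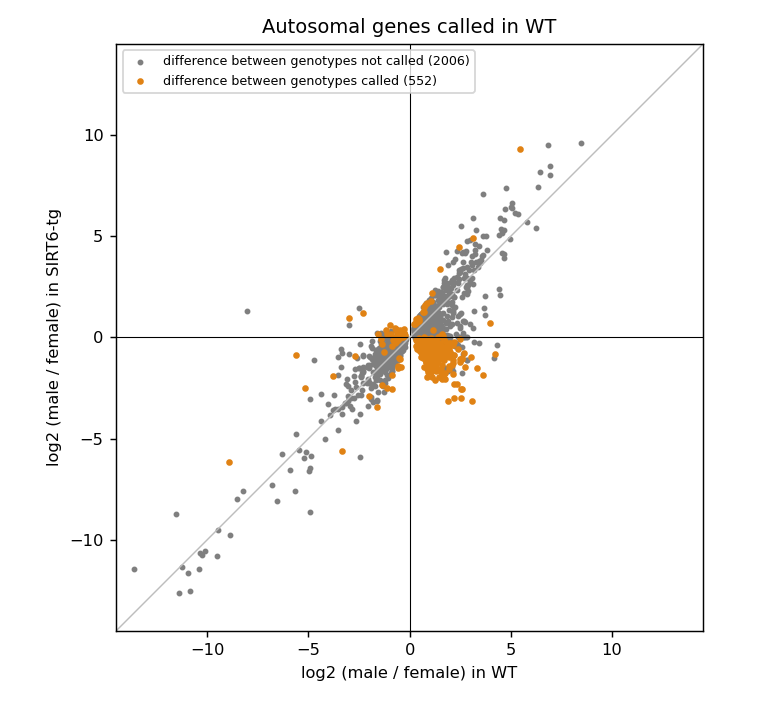
Log2 sex difference in SIRT6-tg mice (vertical axis) against that in WT mice (horizontal axis) for the 2558 genes called in WT, with the 552 genes whose difference between genotypes was called in orange. The line marks equal differences, and 156 genes higher in WT males were called higher in females in SIRT6-tg mice.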

How the data were processed

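Liver RNA of 28 mice was sequenced, and 14 WT libraries were compared by sex. Per the methods, the authors prepared NEBNext Ultra libraries, sequenced single-end reads on a HiSeq instrument, aligned them to mm10 with STAR 2.5.0a and counted uniquely mapped reads per gene of Gencode vM12 by HTSeq-count. The authors deposited the raw counts, whole numbers with no normalization or filter. The strand setting of the counting was not given in the sources used here, so overlapping and antisense genes are uncertain. Symbols and coordinates came from Gencode vM21 (GRCm38), in which 49326 of 49585 features were found.

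Groups came from the sample titles. The labels do not say that replicate numbers link mice, and deviations of same-numbered males and females correlated between −0.263 and 0.214, so samples were treated as unpaired. No 2 libraries of the same sex among the WT mice agreed within sampling noise (chi-square per gene at least 13.3). Expressed genes were those whose mean, divided by DESeq2 size factors, reached 0.5, following the authors' definition. TMM factors scaled the counts, and edgeR 4.0.16 gave quasi-likelihood F-tests (R 4.3.3, robust, all 28 libraries, 4 groups, no covariates), with Benjamini-Hochberg adjustment over the 21583 expressed genes and a threshold of 0.05. Differences are male over female on the log2 scale, and levels are TMM-scaled CPM computed here. The p-values of edgeR set a difference between groups against the spread between mice, estimated over all 28 libraries. The methods were tested on simulated data.

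Genes were named by rule: among called genes of 2-fold or more with separate ranges, the 12 with the lowest adjusted p in each direction. The rule added the 5 with the largest CPM difference in each direction, 5 called genes ranked first by adjusted p of the genotype difference, and members of fixed lists with their exceptions. Members and lists were chosen with earlier results of these data known. Lists are described by counts and medians, without a set test. Depth was 18758863 to 35393069 counts per library. The 27 alternatives changed the scaling, filter, tool (DESeq2 1.42.0), samples or block. Promoter windows were RefSeq sequences of GRCm38.p6. Results for some genes are not reported here.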

Additional observations from a re-analysis of the deposited data

Results flagged for a closer look

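Within groups of 7, the highest library stood apart from the rest by Dixon's criterion, which chance meets in about 1 of 20 groups, in several named genes and list sums. In males these were Elovl3 (189.9 CPM) and Slc22a28 (10.53 CPM) in replicate 2, Slc22a26 (2.46 CPM), Alb (106700 CPM) and the sum of known female-biased genes (1583 CPM) in replicate 5, Selenop (9793 CPM) in replicate 6, and the adipose sum (40.52 CPM) and pancreas sum (4.169 CPM) in replicate 3. In females they were Cyp4a12b (2.047 CPM), Mup20 (245.7 CPM) and Cyp2d9 (221.1 CPM) in replicate 3, and Serpina1e (682.8 CPM), the erythroid sum (654.3 CPM) and the adipose sum (34.51 CPM) in replicate 1. Male replicate 5 and female replicate 3 thus recur, each toward the level of the other sex, and male replicate 2 recurs away from it. Selenop in male replicate 6 and Serpina1e in female replicate 1 also lay toward the other sex. A highest library in the sex with the lower level can only lie that way.

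The sex difference itself differed between WT and SIRT6-tg mice by edgeR's test in named genes and lists. The log2 change, WT minus SIRT6-tg, was −1.77 in Gm4956, −0.65 in Fga, 2.43 in Gcnt1, 2.79 in Gbp5, 2.12 in Ms4a4b, 1.51 in Col6a3 and 2.41 in Glipr2. It was called in 10 of 20 cell cycle, 16 of 19 interferon-gamma, 7 of 7 MHC class II, 10 of 16 T cell, 7 of 10 NK cell and 7 of 12 macrophage and dendritic cell genes.

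Outside the autosomes, 86 of 700 expressed X-linked genes and 12 of 24 expressed mitochondrial genes were called between WT males and females.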

How the results depend on the processing

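All 39 genes named by rule kept their direction and their call in each alternative in which they were tested, 1014 values in all. Among the 27 alternatives, they were not looked up under glmTreat, which asks for more than a 2-fold difference. Named genes under 2-fold, such as Alb (log2 difference −0.69), could not pass it. Scaling moved the balance of directions. Library size alone gave 4087 calls, 3571 higher in males and 516 in females (87.37% male), and 1803 calls for the difference between genotypes, and scaling by hepatocyte genes gave 3988, 3581, 407, 89.79% and 2379. Requiring evidence of more than a 2-fold difference with glmTreat left 168 calls. With a gap of 100 kb, 7 runs of genes were found instead of 14. DESeq2 made 3117 calls, of which 2499 were edgeR calls in the same direction, WT libraries alone gave 1931, and leaving out the 4 libraries low on the second component, a choice made after seeing the data, gave 3188.

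Leaving out 1 library at a time gave 1974 (without male replicate 7) to 2866 (without male replicate 5) calls, 1152 to 1601 higher in males, 821 to 1276 higher in females, 54.31% to 62.02% male, 231 to 273 called list members, 39 named genes throughout, 774 to 1201 calls between genotypes and 34.74% to 40.7% of variance on the first component. With the replicate number as a block 2370 genes were called, 1301 higher in males and 1069 in females, where 1 of 7 numbers correlated best with its own. Of 1768 list counts under the alternatives, 1631 stayed within 1.5 times and 137 did not. The medians of the steroid, bile acid, cholesterol, glucose, respiratory chain, complement, clock, hepatocyte, amino acid, Aldh, Ces, Cyp2j and apolipoprotein lists changed sign with scaling by library size or hepatocyte genes, so their counts by direction hold for TMM scaling. Depth limits genes under about 0.1 CPM, which rest on a few reads per library.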
